A study of Mus musculus with 18 samples.

Results

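GSK343, an inhibitor of the histone methyltransferase EZH2, was tested on mouse embryoid bodies labelled as Mettl14 knockout. The comparison rests on 6 of the 18 libraries of the series, chosen by their labels: 3 of the Mettl14 conditional knockout (CKO) with 5 µM GSK343, and 3 of the same knockout without it. The 3 libraries of the Mettl14 control entered the fit and are given for orientation. Per the labels, all 9 came from C57BL/6 embryonic stem cells that were differentiated for 7 days in suspension, and both groups compared are labelled as knockout. The labels name DMSO as the vehicle but not in the titles of single libraries, and they state neither how the deletion was induced nor how many clones were used. No control culture with GSK343 is among the 18 libraries, so an effect that needs the knockout cannot be told apart from one that does not. The series design asks how inhibition of H3K27 methylation affects expression in the Mettl14 knockout.

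EZH2 is the catalytic subunit of Polycomb repressive complex 2 (PRC2), which methylates lysine 27 of histone H3, and the trimethylated form, H3K27me3, marks silent genes, many of them developmental regulators. GSK343 competes with the methyl donor S-adenosylmethionine at EZH2. METTL14 and METTL3 form the writer complex for N6-methyladenosine (m6A), a base modification of mRNA. Another system is described only as background, and its part in these data was not tested. When sterols run low in the endoplasmic reticulum, the escort protein SCAP carries the transcription factor SREBP to the Golgi. There SREBP is cut free and switches on the enzymes of cholesterol and fatty acid synthesis. INSIG proteins hold SCAP back, and oxysterols and desmosterol, which accumulate when sterols are plentiful, activate the LXR receptors, whose targets include sterol exporters.

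Total counts were 20714764, 11296467 and 721853 in GSK343 replicates 1 to 3, against 8688596, 6978577 and 1303697 in knockout replicates 1 to 3. A floor of 3 counts thus stood at 4.16 CPM (counts scaled to library size) in GSK343 replicate 3 and at 2.30 CPM in knockout replicate 3, and lay between 0.145 and 0.430 CPM in the other 4. Genes that overlap ribosomal RNA sequence took 10.3% of the counts of knockout replicate 3, against 1.56 to 2.59% in the other 5 libraries. In a principal component analysis of the 9 libraries, the first component (40.8% of the variance) set GSK343 replicate 3 apart and the second (20.5%) set knockout replicate 3 apart. The leading results are therefore also given without this pair. Nothing in the labels says that replicates were separate cultures, so p-values measure only the spread between these libraries, which may be technical.

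Mettl14 had 11.7, 16.7 and 12.5 CPM with GSK343, against 16.3, 22.9 and 19.3 CPM in the knockout, and 16.4, 17.8 and 16.5 CPM in the controls. Counts over the whole gene may come from outside the deleted part and so check neither its presence nor its absence. The labelled embryoid bodies carried few transcripts of stem cells or of most lineages. Of 10 pluripotency markers, none passed the low-count filter, 4 had no count in the 6 libraries, and their summed level was 2.74, 1.56 and 6.96 CPM with GSK343, against 4.04, 1.29 and 4.20 CPM in the knockout. Markers of fibroblasts and mesenchyme summed to 10308, 9467 and 11798 CPM with GSK343, against 10999, 12351 and 13745 CPM in the knockout. Stem cell markers were thus near 0 and mesenchyme markers abundant in both groups. Xist stood at 171, 239 and 123 CPM of total counts with GSK343, against 229, 228 and 317 CPM in the knockout. Y-linked genes summed to 231, 226 and 175 CPM of total counts with GSK343, against 213, 197 and 147 CPM in the knockout. Both were thus present in each of these libraries, and the origin of the cells was not tested. In bulk RNA, fewer cells of a type and less RNA per cell cannot be told apart.

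With GSK343, genes of cholesterol synthesis stood higher from one end of the pathway to the other, and 4 genes passed the test, Lss, Crabp1 and Cryab among them. EdgeR's quasi-likelihood test with Benjamini-Hochberg adjustment called 4 of 13882 genes, 4 higher (0.0288% of the genes tested) and 0 lower. At an unadjusted p under 0.05 stood 367 genes higher (2.64%) and 430 lower (3.10%), or 5.74% in either direction. The 3 GSK343 libraries lay above all 3 knockout libraries in 633 genes (4.56%) and below them in 755 (5.44%). The median log2 change of all genes tested was -0.03, and 46.8% were positive. DESeq2 called 34 genes higher (0.245%) and 22 lower (0.158%), and limma voom with quality weights called 13 higher (0.0936%) and 6 lower (0.0432%). Both called the same 16 genes, 28.6% of the calls of DESeq2 and 84.2% of those of voom, and the 4 edgeR calls were among them.

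**Figure D1:**
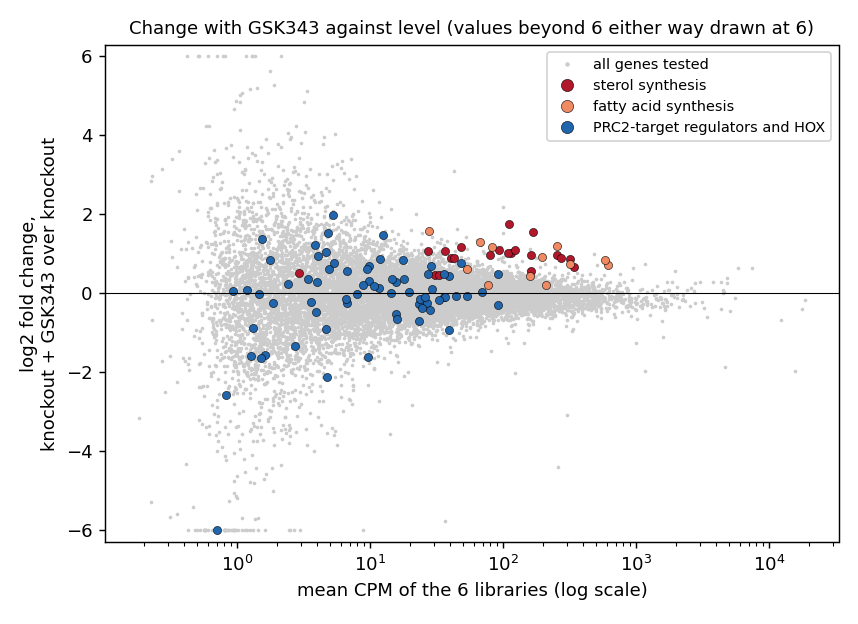
Log2 fold change of the knockout with GSK343 over the knockout (vertical axis, values beyond 6 either way drawn at 6) against mean CPM of the 6 libraries (horizontal axis, log scale), 1 point per gene tested. Sterol synthesis (red) and fatty acid genes (orange) lie above 0, while PRC2-target regulators and HOX genes (blue) lie on both sides of 0.

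Lss encodes lanosterol synthase, which folds squalene epoxide into the first sterol ring system. It lies at chr10:76531588-76557138 on the plus strand (mm10, GENCODE M21; ENSMUSG00000033105.12). Its levels were 184, 118 and 209 CPM with GSK343, against 34.5, 68.5 and 46.2 CPM in the knockout, and 42.4, 45.5 and 32.5 CPM in the controls. All 3 treated libraries were above every untreated one, and the controls overlapped the knockout. Lss rose by 1.75 ± 0.30 on the log2 scale (SE from the edgeR fit of the 9 libraries), with an adjusted p of 0.0498 by edgeR.

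Crabp1 encodes a cytosolic protein that binds retinoic acid. It lies at chr9:54764748-54773110 on the plus strand (ENSMUSG00000032291.8). It had 76.3, 49.0 and 107 CPM with GSK343, against 10.4, 11.4 and 0.840 CPM in the knockout, and 4.63, 13.3 and 19.6 CPM in the controls. The lowest treated library was above every knockout and control library. Crabp1 rose by 3.11 ± 0.53 on the log2 scale (adjusted p = 0.0498 by edgeR), and the low value in knockout replicate 3 lies under that library's floor of 3 counts. Of 18 genes listed as binding, making or degrading retinoids, 14 were tested, with a median log2 change of 0.05. At an unadjusted p under 0.05, 1 was higher, Crabp1 itself (2.64% of all genes), and 1 lower (3.10%).

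Cryab encodes alpha-B crystallin, a small heat shock protein that holds unfolded proteins in solution. It lies at chr9:50751325-50756636 (ENSMUSG00000032060.10), on the plus strand. Its levels were 199, 90.4 and 205 CPM with GSK343, against 52.2, 23.5 and 31.1 CPM in the knockout, and 28.8, 28.8 and 62.0 CPM in the controls. The treated libraries were again above all others. It rose by 2.18 ± 0.38 on the log2 scale (adjusted p = 0.0498 by edgeR).

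The calls of these 3 genes stood close to the threshold. Leaving out replicate 2 or 3 of the knockout, or 1 or 3 of the GSK343 group, ended all 3 calls (edgeR, adjusted p 0.0739 to 0.260), and Lss and Cryab were also lost without control replicate 1 (0.0576). The sizes moved less, with log2 changes of 1.52 to 2.11 for Lss, 2.80 to 3.43 for Crabp1 and 1.95 to 2.62 for Cryab when single libraries were left out. Without the shallowest library of each group the adjusted p was 0.120 for Lss, 0.0829 for Crabp1 and 0.173 for Cryab. With the 2 groups alone, edgeR gave an adjusted p of 0.0783 for Lss and 0.0387 for both Crabp1 and Cryab.

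**Figure D2:**
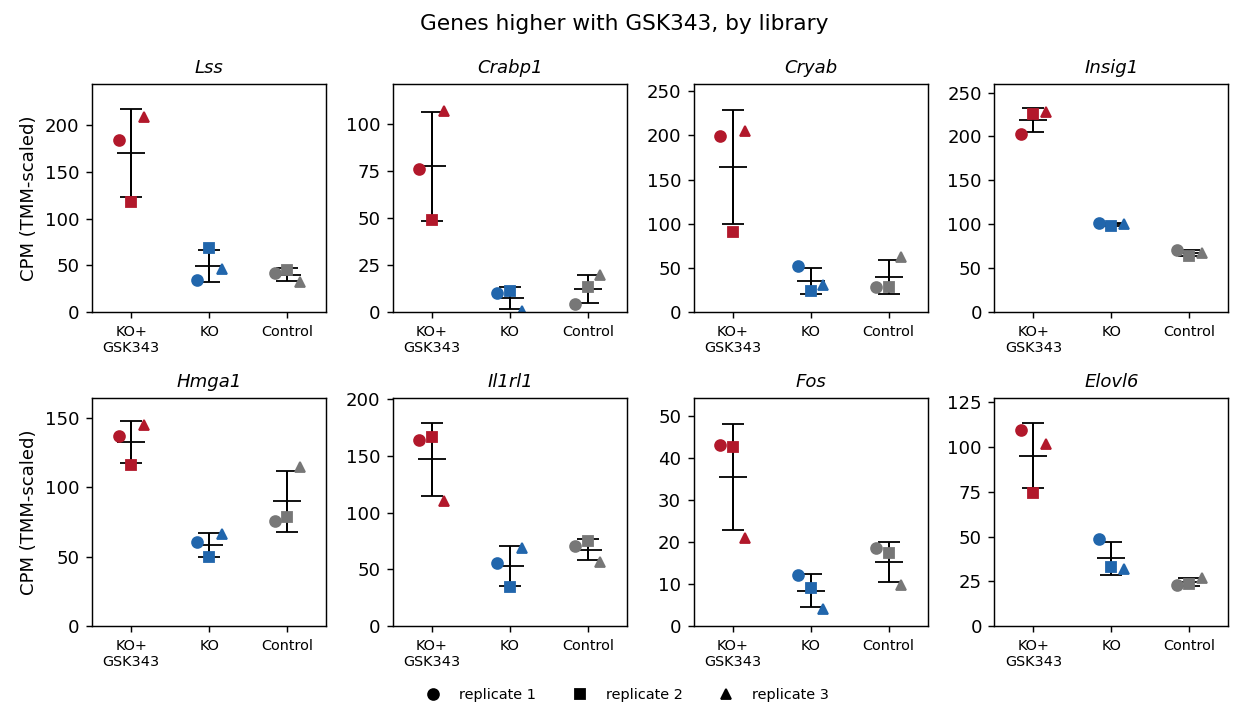
TMM-scaled CPM (vertical axes) of Lss, Crabp1, Cryab, Insig1, Hmga1, Il1rl1, Fos and Elovl6 in each library of the knockout with GSK343 (red), the knockout (blue) and the control (grey), with bars at the mean ± SD of 3. In each of these genes the 3 GSK343 libraries lie above the 3 knockout libraries.

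Cholesterol synthesis genes recurred further down the ranking. All 21 listed enzymes from acetyl-CoA to cholesterol were tested and all 21 had a positive log2 change, with a median of 0.97, against -0.03 over all genes. At an unadjusted p under 0.05 stood 18 of the 21, all higher, where 2.64% of all genes did, and 15 had no overlap between the groups, where 4.56% of all genes did. Their summed level was 3643, 3441 and 3067 CPM with GSK343, against 1841, 1884 and 1490.5 CPM in the knockout and 1225, 1254 and 1177 CPM in the controls. Each treated library was above each knockout library, and each knockout library above each control. Of the 21, 2 passed the adjusted test over all genes, Lss among them. Without the shallowest library of each group, 15 of the 21 stood higher at an unadjusted p under 0.05 and the median was 0.91. The list was chosen with the pattern known, so its counts are a description.

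The mevalonate pathway builds isoprene units from acetyl-CoA. Its 9 enzymes had a median of 0.91, with 7 higher at an unadjusted p under 0.05 (2.64% of all genes) and 4 without overlap (4.56%). Hmgcs1, the synthase that feeds the pathway, had 377, 381 and 244 CPM with GSK343, against 184, 209 and 119 CPM in the knockout. Its treated libraries were all above the knockout. The log2 change was 0.97 ± 0.25, with an adjusted p of 0.302 by edgeR. Idi1, which isomerises the activated isoprene unit, had 188, 194 and 76.5 CPM with GSK343, against 72.2, 109 and 43.7 CPM in the knockout with overlapping groups (1.03 ± 0.37).

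The 12 enzymes from squalene to cholesterol had a median of 1.06. At an unadjusted p under 0.05, 11 were higher (2.64% of all genes), and 11 were higher without overlap (4.56%). Fdft1, squalene synthase, had 440.1, 431 and 376 CPM with GSK343, against 278, 257 and 248 CPM in the knockout. Sqle, the epoxidase that supplies the substrate of LSS, had 215, 188 and 244 CPM with GSK343, against 108, 98.0 and 123 CPM in the knockout. In both genes the treated libraries were above all untreated ones, with log2 changes of 0.67 ± 0.21 and 0.97 ± 0.23. Cyp51, the lanosterol demethylase, had 354, 435 and 277 CPM with GSK343, against 196, 213 and 162 CPM in the knockout. Msmo1, the sterol methyl oxidase of the next steps, had 419, 437 and 370.1 CPM with GSK343, against 285, 235 and 151 CPM in the knockout. Hsd17b7, a sterol ketone reductase, had 153, 147 and 139 CPM with GSK343, against 79.8, 79.8 and 52.1 CPM in the knockout. None of these 3 genes overlapped between the groups. Sc5d, the lathosterol desaturase, had 198, 176 and 129 CPM with GSK343, against 90.7, 70.4 and 77.3 CPM in the knockout, with an adjusted p of 0.160 by edgeR, against 0.186 for Sqle and 0.202 for Hsd17b7. DESeq2 and voom both called Sc5d.

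**Figure D3:**
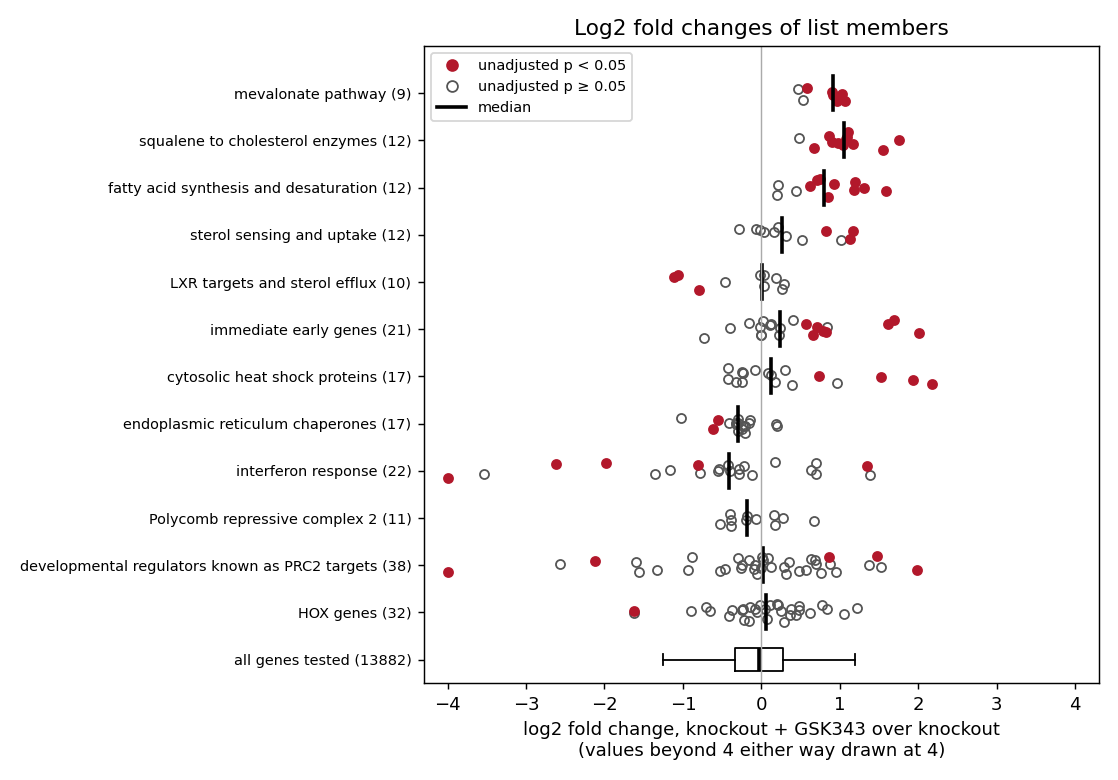
Log2 change with GSK343 over knockout (horizontal axis) of each tested member of the listed gene groups, 1 point per gene, with the median of each group marked and values beyond 4 either way drawn at 4. The box of all genes tested spans the quartiles, with whiskers at the plotting tool's default limit and no outliers drawn. The 21 sterol synthesis genes all lie above 0 with a median of 0.97, while the HOX genes and the regulators known as PRC2 targets lie on both sides of 0.

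Among 12 genes of sterol sensing and uptake, 3 were higher at an unadjusted p under 0.05 (2.64% of all genes) and 0 lower. The median was 0.27, and it was 0.16 with 2 genes higher without GSK343 replicate 1, and 0.10 over the 11 genes still tested with libraries thinned to 721853 counts. Insig1, which retains SCAP and is itself a target of SREBP, had 203, 225 and 228 CPM with GSK343, against 101, 98.0 and 101 CPM in the knockout, and 70.8, 64.1 and 66.9 CPM in the controls. The spread within each group was small and the groups were far apart. Its log2 change was 1.13 ± 0.21 (adjusted p = 0.0929 by edgeR, called by DESeq2 and voom).

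Of 10 targets of the LXR receptors, 0 were higher and 3 lower at an unadjusted p under 0.05, where 3.10% of all genes were lower. The median was 0.01, but -0.25 without knockout replicate 3, -0.24 without GSK343 replicate 2 and -0.21 without the shallowest library of each group. The sterol exporter Abcg1 had 14.3, 15.7 and 33.4 CPM with GSK343, against 39.2, 29.6 and 51.2 CPM in the knockout, and 71.4, 64.8 and 62.4 CPM in the controls. Its groups overlapped, since GSK343 replicate 3 was above knockout replicate 2. The exporter Abca1 had 22.1, 40.5 and 59.8 CPM with GSK343, against 55.0, 82.1 and 113 CPM in the knockout. Mylip, a ubiquitin ligase, had 59.4, 42.5 and 34.8 CPM with GSK343, against 68.4, 83.7 and 94.0 CPM in the knockout. Abca1 overlapped and Mylip was lower without overlap. Their log2 changes were -1.06 ± 0.35, -1.11 ± 0.38 and -0.80 ± 0.27, and without GSK343 replicate 1 only 1 LXR target was lower at an unadjusted p under 0.05.

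Genes of fatty acid synthesis and desaturation, the other arm of SREBP control, were all positive (12 of 12), with a median of 0.80. At an unadjusted p under 0.05 stood 9, all higher (2.64% of all genes), and 8 were higher without overlap (4.56% of all genes). Scd1, the desaturase that makes oleate, had 468, 359 and 227 CPM with GSK343, against 125, 194 and 144 CPM in the knockout. Elovl6, which lengthens palmitate to stearate, had 109.5, 74.6 and 102 CPM with GSK343, against 48.5, 33.0 and 31.9 CPM in the knockout, and was called by DESeq2 and voom. Fads2, the first desaturase of polyunsaturated fatty acid synthesis, had 126, 143 and 69.6 CPM with GSK343, against 43.0, 56.2 and 53.7 CPM in the knockout. Acss2, which makes acetyl-CoA from acetate, had 43.5, 38.6 and 43.1 CPM with GSK343, against 14.7, 17.9 and 6.72 CPM in the knockout. None of the 4 overlapped, and their log2 changes were 1.20 ± 0.28, 1.31 ± 0.28, 1.18 ± 0.28 and 1.59 ± 0.40, with no adjusted p under 0.05 by edgeR. Without GSK343 replicate 1 the number higher at an unadjusted p under 0.05 was 6.

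Of 22 genes of lysosomes and autophagy, which degrade and recycle cell contents, 5 were positive, where 46.8% of all genes were, with a median of -0.12. At an unadjusted p under 0.05, 0 were higher (2.64% of all genes) and 1 lower (3.10%). Above the knockout without overlap was 1 (4.56% of all genes), and below it were 4 (5.44%).

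Promoter sequence is shown for 3 sterol genes of different roles and for Crabp1, a called gene outside the pathway, because these genes carried the differences described above. The windows come from RefSeq (GRCm38.p6), all 4 genes are on the plus strand, and the sequences run from 5′ to 3′ with matches in capitals. The motifs searched on both strands were TCACNCCAC (a form of the sterol regulatory element bound by SREBP), CCAAT (bound by NF-Y, a known partner of SREBP) and GAANNTTC (the core of the heat shock element), and ATTGG is CCAAT on the opposite strand. None of the matches shown overlaps another.
Lss, chr10:76531355-76531654: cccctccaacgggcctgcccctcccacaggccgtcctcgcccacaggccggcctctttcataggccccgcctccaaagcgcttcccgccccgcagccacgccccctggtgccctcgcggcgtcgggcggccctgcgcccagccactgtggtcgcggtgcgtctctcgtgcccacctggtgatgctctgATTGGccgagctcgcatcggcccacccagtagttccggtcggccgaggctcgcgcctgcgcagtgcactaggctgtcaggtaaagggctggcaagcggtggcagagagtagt
Hmgcs1, chr13:119690101-119690400: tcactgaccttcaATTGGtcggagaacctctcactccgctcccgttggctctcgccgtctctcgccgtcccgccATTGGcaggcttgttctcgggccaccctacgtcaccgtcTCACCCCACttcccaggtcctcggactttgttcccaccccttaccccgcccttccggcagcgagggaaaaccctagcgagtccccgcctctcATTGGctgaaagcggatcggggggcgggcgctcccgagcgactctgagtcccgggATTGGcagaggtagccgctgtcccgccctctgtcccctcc
Insig1, chr5:28071162-28071461: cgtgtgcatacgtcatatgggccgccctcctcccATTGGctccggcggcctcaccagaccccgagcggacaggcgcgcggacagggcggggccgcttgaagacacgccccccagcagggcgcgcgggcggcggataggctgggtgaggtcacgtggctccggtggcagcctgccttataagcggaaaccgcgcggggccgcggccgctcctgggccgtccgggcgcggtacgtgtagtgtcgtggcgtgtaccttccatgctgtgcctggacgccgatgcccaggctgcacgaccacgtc
Crabp1, chr9:54764498-54764797: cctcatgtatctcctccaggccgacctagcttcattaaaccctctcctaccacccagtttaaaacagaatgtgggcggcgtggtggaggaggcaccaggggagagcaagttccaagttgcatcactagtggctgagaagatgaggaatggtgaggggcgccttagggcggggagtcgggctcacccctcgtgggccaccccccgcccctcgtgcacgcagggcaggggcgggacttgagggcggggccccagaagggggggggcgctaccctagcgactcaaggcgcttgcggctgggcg

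Distances here are counted from the RefSeq start, which for Lss differs from the GENCODE start given above. The Lss window held 1 CCAAT, on the minus strand 62 bases before the gene's start. The Hmgcs1 window held 4 CCAAT and 1 TCACNCCAC, with the TCACNCCAC match 137 bases before the start. The Insig1 window held 1 CCAAT, 216 bases before the start, and the Crabp1 window held none of the motifs. Of the 21 sterol synthesis genes, 16 had a window in the table, 15 of these 16 held CCAAT and 1 held TCACNCCAC. Over all 27025 genes with a window, 41.1% held CCAAT, 1.44% TCACNCCAC and 9.04% GAANNTTC. Of 9 fatty acid genes with a window, 6 held CCAAT, and of 8 sensing and uptake genes 5 did, with 0 matches to TCACNCCAC in either group. A match describes letters in a window, not binding, and an absent match says only that those letters are not there.

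Heat shock genes were split. Of 17 cytosolic heat shock proteins tested, 4 were higher at an unadjusted p under 0.05 (2.64% of all genes), Cryab among them, and 0 lower (3.10% of all genes). The median was 0.12. Without the shallowest library of each group, 5 were higher and 3 lower at that p, where 588 and 803 of 14547 genes were, and the median was 0.03. The inducible chaperone Hspa1a had 29.8, 13.7 and 13.9 CPM with GSK343, against 6.12, 4.15 and 5.04 CPM in the knockout. Hspa1b, its near-identical copy, had 62.4, 32.6 and 11.1 CPM with GSK343, against 15.2, 6.72 and 19.3 CPM in the knockout. Reads of this pair may be divided by the counting, so their separate values are uncertain. The co-chaperone Dnajb1 had 76.5, 83.0 and 77.9 CPM with GSK343, against 42.1, 56.8 and 43.7 CPM in the knockout. Hspa1a and Dnajb1 were higher without overlap, while GSK343 and knockout libraries overlapped in Hspa1b. The log2 changes were 1.94 ± 0.57 for Hspa1a, 0.73 ± 0.26 for Dnajb1 and 1.53 ± 0.51 for Hspa1b. Of 13 heat shock genes with a promoter window, 10 held GAANNTTC. The summed level of the list overlapped between the groups, at 7428, 7493 and 9621 CPM with GSK343, against 10646, 9088 and 7263 CPM in the knockout.

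Immediate early genes, transcription factors and RNA regulators that answer growth and stress signals within minutes, had 8 of 21 members higher at an unadjusted p under 0.05 (2.64% of all genes) and 0 lower, and 7 were higher without overlap (4.56% of all genes). The median was 0.23, and it was 0.47 without knockout replicate 3, 0.36 without GSK343 replicate 2 and 0.45 without GSK343 replicate 3. Fos had 43.0, 42.5 and 20.9 CPM with GSK343, against 12.1, 9.01 and 4.20 CPM in the knockout (2.01 ± 0.43, adjusted p = 0.128 by edgeR, called by DESeq2 and voom). Zfp36, which destabilises mRNAs with AU-rich elements, had 28.4, 28.5 and 36.2 CPM with GSK343, against 13.8, 8.58 and 5.88 CPM in the knockout. Jun, the partner of Fos in AP-1, had 147, 153 and 168 CPM with GSK343, against 108, 94.4 and 92.4 CPM in the knockout. Every treated library was above every knockout library in these 3 genes. The number higher at an unadjusted p under 0.05 was 5 of 21 without knockout replicate 2 or without GSK343 replicate 1, and 5 of the 17 still tested with libraries thinned to 721853 counts.

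Other stress programmes had few members past that threshold. At an unadjusted p under 0.05, the 17 tested ATF4 response genes had 0 higher and 0 lower (median 0.09), as did the 15 NRF2 antioxidant genes (median -0.03) and the 18 hypoxia and glycolysis genes (median -0.07). The 16 p53 targets had 1 higher and the 6 metallothionein and zinc transport genes had 1 higher, Mt2, where 2.64% of all genes were. Endoplasmic reticulum chaperones had 15 of 17 negative and 2 positive, where 46.8% of all genes were positive, and a median of -0.29. Below the knockout without overlap were 7 (5.44% of all genes), and 2 were lower at an unadjusted p under 0.05 (3.10% of all genes). Pdia6, a disulfide isomerase, had 197, 175 and 178 CPM with GSK343, against 306, 296 and 241 CPM in the knockout. Hsp90b1, the chaperone GRP94, had 1042, 1194 and 856 CPM with GSK343, against 1775, 1501 and 1262 CPM in the knockout. Both were lower in all treated libraries, and their log2 changes were -0.62 ± 0.21 and -0.55 ± 0.22, with no adjusted p under 0.05 by edgeR.

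Genes outside lipid synthesis were also among the top of the ranking. Il1rl1, the receptor ST2 for interleukin-33, had 164, 167 and 109.9 CPM with GSK343, against 55.3, 34.6 and 68.9 CPM in the knockout. It was separate from the knockout in every library, with a log2 change of 1.52 ± 0.28 (adjusted p = 0.0753 by edgeR). Hmga1, an architectural chromatin protein, had 133 ± 15.0 CPM with GSK343, against 58.7 ± 8.54 CPM in the knockout (SD, n = 3). Flnc, the actin cross-linker filamin C, had 89.8 ± 6.89 CPM with GSK343, against 36.2 ± 13.1 CPM in the knockout. Sod3, the extracellular superoxide dismutase, had 645 ± 93.8 CPM with GSK343, against 324 ± 50.5 CPM in the knockout. Il1rl1, Hmga1, Flnc and Sod3 were called by both DESeq2 and voom. Kmt2b, a methyltransferase of histone H3 lysine 4, had 94.7 ± 31.6 CPM with GSK343, against 40.1 ± 6.58 CPM in the knockout, with an adjusted p of 0.202 by edgeR. Tbc1d24, a protein with a TBC domain linked to vesicle traffic, had a log2 change of 1.33 ± 0.31. All 6 of these genes had no overlap between the groups, which their choice by small p favours.

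No lower gene passed the edgeR test, while 430 had an unadjusted p under 0.05, DESeq2 called 22 and voom 6. EdgeR called 30 lower beside 20 higher without the low-count filter, and 6 lower beside 8 higher without knockout replicate 1. Both DESeq2 and voom called Postn, Mmp9 and Prr9. Periostin (Postn), a matrix protein of fibroblasts and periosteum, had 835, 1198 and 1007 CPM with GSK343, against 2091, 2376 and 2071 CPM in the knockout, and 2608, 1644 and 1153 CPM in the controls. The controls spanned the gap between the groups. Mmp9, a gelatinase, had 432, 359 and 973 CPM with GSK343, against 1617, 1298 and 1246 CPM in the knockout. Its treated libraries were below all of the knockout, the nearest being GSK343 replicate 3. The log2 changes were -1.10 ± 0.26 and -1.25 ± 0.30, each with an adjusted p of 0.202 by edgeR. Without the shallowest library of each group, edgeR called Mmp9 lower and Il1rl1 higher. Prr9, a proline-rich protein, had 24.0, 24.9 and 12.5 CPM with GSK343, against 68.1, 68.5 and 43.7 CPM in the knockout (-1.48 ± 0.31).

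Secreted inhibitors of Wnt signalling were among the lowest genes. Dkk1, which blocks the Wnt co-receptor LRP6, had 1.02, 0.520 and 0 CPM with GSK343, against 18.2, 3.58 and 10.1 CPM in the knockout, and 5.56, 8.09 and 6.18 CPM in the controls. Dkk2, its relative, had 1.49, 5.98 and 0 CPM with GSK343, against 23.8, 23.7 and 14.3 CPM in the knockout, and 8.80, 7.02 and 9.99 CPM in the controls. In both, all treated libraries were below all others, but the 0 in GSK343 replicate 3 stands against a floor of 4.16 CPM. The log2 changes were -3.85 ± 0.82 and -2.72 ± 0.62, with adjusted p of 0.128 and 0.185 by edgeR. Of 16 Wnt feedback and antagonist genes tested, 0 were higher and 4 lower at an unadjusted p under 0.05, where 2.64% and 3.10% of all genes were. The lower ones besides Dkk1 and Dkk2 were Wif1 and Nkd1, but the list's median was 0.15 and 9 were positive. Leaving out any 1 control library, or knockout replicate 2, reduced the number lower to 2. The median was 0.36 without knockout replicate 2, -0.04 without GSK343 replicate 3 and -0.15 without the shallowest library of each group.

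Other genes at the low end included the membrane protein gene Vstm2b with 2.98, 4.25 and 1.39 CPM with GSK343, against 14.8, 17.6 and 16.8 CPM in the knockout. Its treated libraries were all below the knockout, and its log2 change was -2.31 ± 0.49 (adjusted p = 0.128 by edgeR). C1qtnf6, a secreted C1q-like protein, had 21.4, 21.2 and 25.0 CPM with GSK343, against 58.7, 48.4 and 63.8 CPM in the knockout, without overlap. Spon1, a secreted matrix protein of the spondin family, had 0.279, 1.82 and 0 CPM with GSK343, against 10.9, 13.4 and 5.88 CPM in the knockout. Fap, the fibroblast activation protease, had 2.51, 1.65 and 0 CPM with GSK343, against 7.96, 11.6 and 18.5 CPM in the knockout. Neither overlapped, again with a 0 in the shallowest library. Ednra, the endothelin receptor, had 20.1 ± 4.31 CPM with GSK343, against 43.3 ± 5.34 CPM in the knockout (SD, n = 3). Pla2g7, the lipoprotein-associated phospholipase, had 223 ± 31.6 CPM with GSK343, against 429 ± 98.7 CPM in the knockout. Tppp3, a tubulin-binding protein, had 17.4 ± 7.47 CPM with GSK343, against 59.3 ± 27.4 CPM in the knockout. The gap was wider than the SD of either group in these 3 genes, which their choice by small p favours. Plxna4, a semaphorin receptor, had 85.2 ± 20.3 CPM with GSK343, against 201 ± 109 CPM in the knockout. Col24a1, a minor collagen, had 65.8 ± 6.08 CPM with GSK343, against 144 ± 58.1 CPM in the knockout. All were below the knockout without overlap in each library, and none had an adjusted p under 0.05 by edgeR.

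**Figure D4:**
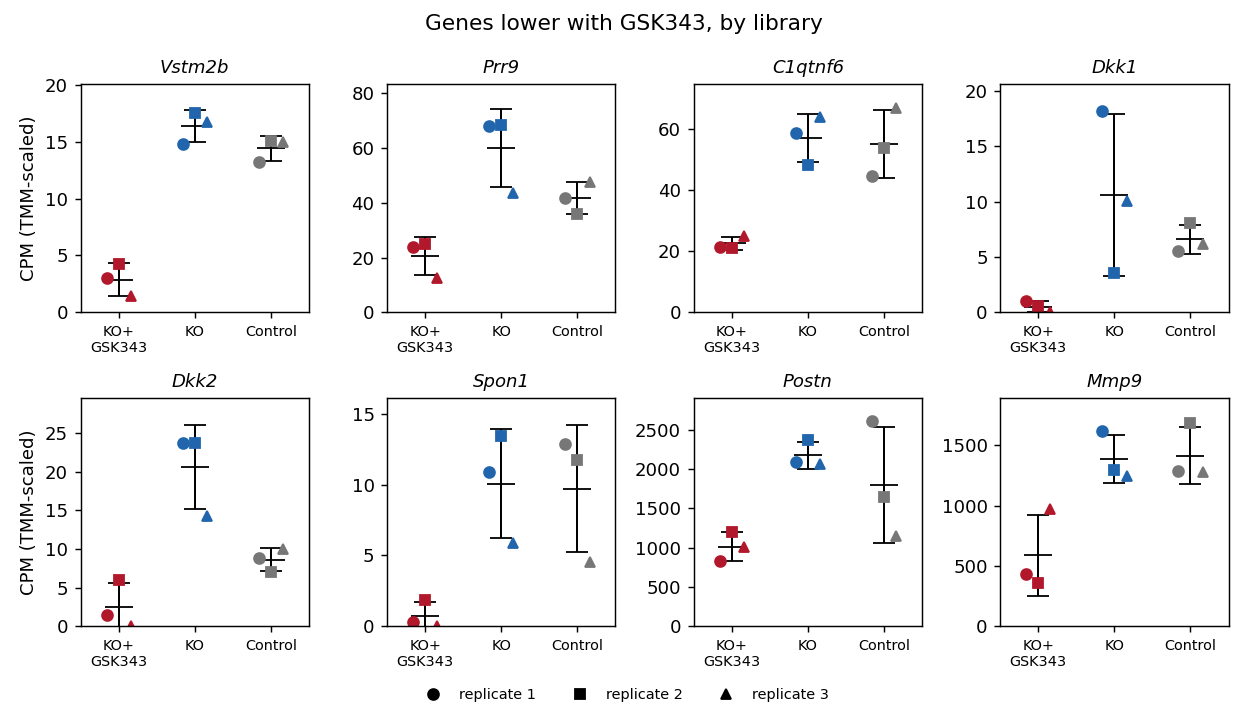
TMM-scaled CPM (vertical axes) of Vstm2b, Prr9, C1qtnf6, Dkk1, Dkk2, Spon1, Postn and Mmp9 in each library of the knockout with GSK343 (red), the knockout (blue) and the control (grey), with bars at the mean ± SD of 3. Postn has 835, 1198 and 1007 CPM with GSK343 and 2091, 2376 and 2071 CPM in the knockout, and no gene shown passed the edgeR test.

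Matrix genes as groups had few members at an unadjusted p under 0.05, where 2.64% of all genes were higher and 3.10% lower. The 14 fibrillar and type VI collagens had 12 negative and a median of -0.26, with 0 higher and 0 lower at an unadjusted p under 0.05. Col1a1 had 3933, 3528 and 5558 CPM with GSK343, against 4696, 5779 and 7139 CPM in the knockout, and these groups overlapped. Basement membrane genes had 1 of 15 higher, the laminin gene Lama5, and matricellular and proteoglycan genes 2 of 19 lower, Postn and Sparcl1. Among 14 metalloproteinases and inhibitors, 1 was higher and 2 lower, Mmp9 and Mmp19. The higher one, the inhibitor Timp3, had 128, 124 and 143 CPM with GSK343, against 77.6, 67.1 and 61.3 CPM in the knockout without overlap. Smooth muscle contractile genes had 0 of 10 and adipocyte genes 0 of 6 in either direction. Osteoblast and cartilage genes had 8 of 16 tested, 1 higher (Col10a1) and 1 lower (Alpl). Of 17 TGF-beta and BMP feedback genes 0 stood at that p, and of 10 genes of the insulin-like growth factor axis 1 was higher (Irs2) and 1 lower (Igf1).

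The target of the inhibitor and its complex were measured next. Ezh2 had 6.75, 15.4 and 6.96 CPM with GSK343, against 11.1, 15.4 and 6.72 CPM in the knockout, with overlapping groups and a log2 change of -0.19 ± 0.50. Ezh1, the other methyltransferase of PRC2, had 42.3, 17.8 and 20.9 CPM with GSK343, against 24.0, 22.0 and 28.5 CPM in the knockout, and these groups overlapped too (0.18 ± 0.37). Of 11 PRC2 genes tested, 0 stood at an unadjusted p under 0.05. Their median was -0.19 with 4 positive, but 0.02 with 6 positive without knockout replicate 3. Rbbp4 had 137, 152 and 107 CPM with GSK343, against 182, 177 and 169 CPM in the knockout. Rbbp7 had 99.7, 133 and 131 CPM with GSK343, against 145, 169 and 159 CPM in the knockout. These histone-binding subunits, which other complexes share, were lower without overlap but at adjusted p of 0.921 and 0.922 by edgeR. Among 20 genes of Polycomb repressive complex 1, 1 was higher (Phc1, 1.02) and 1 lower (Ring1, -1.25) at an unadjusted p under 0.05. At that p, 2.64% of all genes were higher and 3.10% lower. The H3K27 demethylases Kdm6a and Kdm6b overlapped between the groups as well. Kdm6a had 27.2, 28.0 and 2.78 CPM with GSK343, against 19.5, 30.2 and 36.9 CPM in the knockout, and Kdm6b had 80.5, 70.3 and 87.7 CPM with GSK343, against 53.5, 54.2 and 133 CPM in the knockout. Of the 19 genes of the m6A machinery, 0 stood at an unadjusted p under 0.05 (median 0.17).

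Genes known as PRC2 targets in embryonic stem cells lay on both sides of 0. Of 80 developmental regulators listed, 38 passed the low-count filter, which keeps genes with enough counts in at least 3 libraries. Of these 38, 3 were higher (2.64% of all genes) and 2 lower (3.10% of all genes) at an unadjusted p under 0.05. Without overlap, 5 were higher (4.56% of all genes) and 3 lower (5.44%). Positive were 20, where 46.8% of all genes were, and the median was 0.02, which ran from 0.01 to 0.13 without single libraries. The LIM homeobox gene Lhx9 had 21.5, 14.9 and 19.5 CPM with GSK343, against 7.96, 6.29 and 5.04 CPM in the knockout, without overlap. The homeobox gene Nkx6-1, which patterns pancreas and neural tube, had 12.8, 7.11 and 5.57 CPM with GSK343, against 3.18, 2.00 and 0.840 CPM in the knockout. Dlx2, of forebrain and branchial arch, had 26.2, 20.1 and 20.9 CPM with GSK343, against 11.8, 11.9 and 14.3 CPM in the knockout. Their groups were separate as well, with log2 changes of 1.48 ± 0.45, 1.99 ± 0.81 and 0.86 ± 0.40 and adjusted p of 0.501, 0.752 and 0.863 by edgeR. All knockout values of Nkx6-1 lay under the floor of 4.16 CPM in GSK343 replicate 3. On the lower side, Dlx5 had no count in the 3 treated libraries, against 3.06, 0.286 and 0.840 CPM in the knockout, all under the floor of GSK343 replicate 3. Summed over the list, the level was 704, 715 and 875 CPM with GSK343, against 763, 627 and 732 CPM in the knockout, with overlap.

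HOX genes, clustered regulators of body axis and a textbook target of Polycomb, had 32 of 39 members tested. Of these, 0 were higher and 1 lower (Hoxb4, -1.62) at an unadjusted p under 0.05, where 2.64% and 3.10% of all genes were. Positive were 17, where 46.8% of all genes were, and the median was 0.05, which ran from -0.20 to 0.14 without single libraries. Of 20 germline genes, 3 passed the filter and 0 stood at that p. Cdkn2a, the INK4A and ARF locus that PRC2 represses in many cells, had 167, 160.4 and 161 CPM with GSK343, against 216, 155 and 125 CPM in the knockout. It was abundant in both groups and overlapped. Cdkn1a, encoding p21, had 420.3, 438 and 562 CPM with GSK343, against 494, 338 and 312 CPM in the knockout, and 0 of 6 INK4 and KIP genes stood at an unadjusted p under 0.05. Imprinted genes had 1 of 21 lower (3.10% of all genes), which was H19. It had 2.88, 8.59 and 0 CPM with GSK343, against 23.1, 9.01 and 79.8 CPM in the knockout, where the knockout libraries differed widely.

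Because the filter drops genes without counts, silent genes were also summed. The 39198 genes under 0.5 CPM in the pooled Mettl14 controls, which are outside the comparison, took 0.192, 0.214 and 0.229% of counts with GSK343, against 0.195, 0.159 and 0.263% in the knockout. The groups overlapped, at 0.212 ± 0.0190% with GSK343 and 0.206 ± 0.0528% in the knockout (SD, n = 3), a difference of 0.00583 percentage points (exact two-sided permutation p = 1.0, where 3 against 3 cannot go below 0.1). The 8967 protein-coding ones took 0.0862, 0.0963 and 0.0968% with GSK343, against 0.0767, 0.0683 and 0.0878% in the knockout. Only GSK343 replicate 1 and knockout replicate 3 were out of order, and the shares were 0.0931 ± 0.00598% with GSK343 and 0.0776 ± 0.00978% in the knockout (exact permutation p = 0.2). Genes at 0.5 to 5 CPM in the controls, 4786 in number, took 0.934 ± 0.0379% with GSK343 and 0.895 ± 0.0590% in the knockout (exact permutation p = 0.4). A design of 3 against 3 cannot pass 0.05, so these p-values say nothing on whether silent genes differed. Thinned to the depth of the shallowest library, 881, 957 and 582 silent genes had a count with GSK343, against 1035, 827 and 983 in the knockout. Of the 36 silent PRC2-target regulators, 8, 5 and 1 had a count with GSK343 before thinning, against 10, 4 and 2 in the knockout. After thinning, which was 1 random draw, 3, 4 and 1 had a count with GSK343, against 5, 0 and 0 in the knockout.

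**Figure D5:**
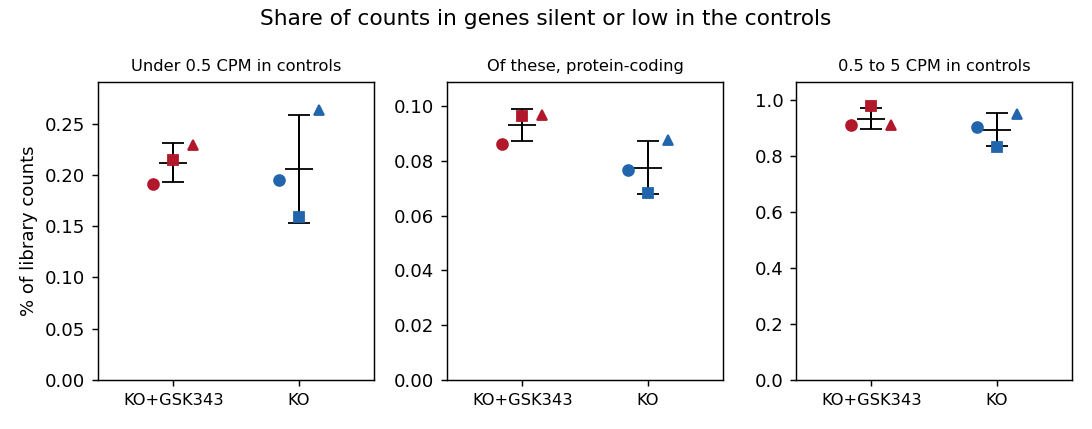
Percent of library counts (vertical axes) in genes under 0.5 CPM in the pooled Mettl14 controls, in the protein-coding ones among them, and in genes at 0.5 to 5 CPM, for the knockout with GSK343 (red) and the knockout (blue), 1 point per library with bars at the mean ± SD of 3. In the first panel the GSK343 libraries lie at 0.192 to 0.229% and the knockout at 0.159 to 0.263%, so the groups overlap.

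The remaining lists are given by their counts at an unadjusted p under 0.05, where 2.64% of all genes were higher and 3.10% lower. Interferon response genes had 1 of 22 higher (Stat2) and 4 lower (Rsad2, Ifi27 and Ifit1 among them), with a median of -0.41 that was 0.13 without knockout replicate 2. Antigen presentation genes had 0 of 9. Fibroblast chemokines and cytokines had 3 of 18 higher, Il1rl1, Cxcl12 and Lif, and 0 lower, with a median of 0.33. Cxcl12, which attracts CXCR4-bearing cells, had 69.0, 64.3 and 77.9 CPM with GSK343, against 39.6, 53.6 and 28.5 CPM in the knockout. The 33 cytosolic ribosomal protein genes had 0 in either direction and a median of -0.20, the 24 genes of mitosis and DNA replication 0 and 0.04, and the 13 mitochondrially encoded mRNAs 1 higher, 1 lower and 0.26.

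Most markers of other cell types were low in both groups. Epithelial markers summed to at most 0.465 CPM with GSK343, against at most 9.92 CPM in the knockout. Endothelial markers summed to 1.82 to 15.3 CPM with GSK343, against 11.2 to 15.1 CPM in the knockout. Muscle markers lay at 2.78 to 5.57 CPM with GSK343, against 6.49 to 25.2 CPM in the knockout, with 7 of 10 at 0 in all 6 libraries. Blood and macrophage markers summed to 5.57 to 28.1 CPM with GSK343, against 6.58 to 15.1 CPM in the knockout. Neural markers summed to 42.1 to 72.5 CPM with GSK343, against 25.5 to 79.5 CPM in the knockout, and markers of neural crest and glia to 45.9 to 117 CPM with GSK343, against 44.9 to 102 CPM in the knockout. Endoderm and yolk sac markers summed to 177 to 283 CPM with GSK343, against 293 to 408 CPM in the knockout, which was mostly Dab2, at 266, 276 and 177 CPM with GSK343, against 277, 401 and 383 CPM in the knockout. The part of any such cells in the changes above was not tested.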

How the data were processed

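Poly(A) RNA was selected on beads and sequenced after library preparation with Takara's SMARTer Stranded kit, per the labels' protocols. Reads passed CASAVA, Trimmomatic 0.38, HISAT2 2.1.0 (mm10) and HTSeq, per the submitters' processing notes. The authors deposited raw counts per gene, with 54446 identifiers per file, of which 54409 matched GENCODE M21. The annotation release and strand setting were not given in the sources used here, so overlapping and antisense genes are uncertain.

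The 9 libraries of the Mettl14 line were fitted together with edgeR 4.0.16 (R 4.3.3; filterByExpr, TMM, quasi-likelihood), and called genes are those whose Benjamini-Hochberg adjusted p was under 0.05. The biological coefficient of variation was 0.394 in this fit, and 0.504 within the GSK343 group, 0.400 within the knockout and 0.293 within the controls. Fitted without the controls, 433 of 12884 genes had an unadjusted p under 0.05 by edgeR, against 797 of 13882 with them. DESeq2 1.42.0, limma 3.58.1 (voom) and the settings named in the closing section were alternatives. CPM are TMM-scaled, with SD over 3 libraries. Changes are log2 with an SE derived from the quasi-likelihood F statistic of the fit. Summed levels add the same CPM. Floors cover counting error only. Figures used Python 3.11.15 and matplotlib 3.10.9.

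Named genes were the called ones, the 15 uncalled protein-coding genes with the smallest p in each direction at 10 CPM or more, up to 4 leading members of each list described, and Mettl14, Ezh2, Ezh1, Kdm6a and Kdm6b. Members named beyond these were chosen after their values were seen. Samples and the 49 lists were chosen with earlier results of these data known. Some genes that the rule names, 1 of the called ones included, are not reported here, though counts and lists hold them.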

Additional observations from a re-analysis of the deposited data

How the results depend on the processing

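The number of called genes depended on the setting, and the cause was not tested. Against 4 by the fit reported, it was 56 by DESeq2, 19 by limma voom with quality weights, 50 without the low-count filter (20 higher, 30 lower), 1 with RLE size factors, 3 with the 2 groups alone, 3 with libraries thinned to 721853 counts, 2 without the shallowest library of each group and 0 with all 18 libraries fitted (607 at an unadjusted p under 0.05). Leaving out single libraries gave 0 to 14 calls. The 0 came without knockout replicate 2, knockout replicate 3 or GSK343 replicate 1 (829, 1017 and 974 at an unadjusted p under 0.05), and the 14 (8 higher, 6 lower) without knockout replicate 1. No pairing by replicate number was detected. Deviations of same-numbered libraries correlated at -0.0419, 0.0232 and 0.0251, and those of differently numbered ones at -0.0667 to 0.0756. With replicate 3 shallow in both groups, this does not settle whether the samples were paired. A replicate block gave 1 call. The median of the sterol synthesis genes was 0.84 to 1.05 without single libraries, with no change of direction in any setting. The difference in the share of silent genes was -0.00846 percentage points with silence defined by the Mettl3 controls (exact permutation p = 0.9), and -0.0175 to 0.0345 without single libraries. Without single libraries Ezh2 ran from -0.75 to 0.14, Ezh1 from -0.37 to 0.45 and Kdm6b from -0.20 to 0.56 on the log2 scale. Signs that turned were Ezh2 at 0.14 without knockout replicate 2 and 0.09 without GSK343 replicate 1, Ezh1 at -0.37 without GSK343 replicate 1, Kdm6a at 0.15 without the shallowest pair, and Kdm6b at -0.20, -0.19 and -0.03 without knockout replicate 1, knockout replicate 2 or GSK343 replicate 3. The floor of 4.16 CPM in GSK343 replicate 3 limits what can be said of genes below it.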
